A study of Mus musculus with 12 samples.

Results

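The extracellular matrix of a lymphoid organ holds adhesive glycoproteins, small proteoglycans and microfibrils that are secreted mainly by stromal cells and in part by macrophages and platelets. A set of 10 such genes was followed: Fn1, Thbs1, Dcn, Lum, Bgn, Sparc, Postn, Fbn1, Tnc and Lox. The members were chosen by symbol, as the genes of fibronectin, thrombospondin, the small leucine-rich proteoglycans, the matricellular proteins, fibrillin and lysyl oxidase. Earlier results of these data were known when they were chosen. All 10 were found among the 23284 gene symbols of the count tables. In axillary lymph node, 4 of them (Fn1, Thbs1, Bgn and Dcn) were higher in mice labelled as without human apoA-I than in mice with it, by 1.80-fold to 4.72-fold. Of these 4 calls only that of Thbs1 held whichever node was left out, and Dcn was near the threshold (edgeR adjusted p = 0.0492). Of all 14012 genes tested in node, 3.95% were called higher in mice without it. In spleen none of the 9 members with enough counts for a test passed between the same genotypes, where 1 of 14009 genes did. Tnc, Dcn, Lum and Postn were lower in spleen than in node in each genotype.

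Fibronectin and thrombospondin bind cells through integrins and other receptors, and fibronectin fibrils serve as a scaffold on which collagen and microfibrils are laid down. The small leucine-rich proteoglycans decorin, lumican and biglycan bind collagen fibrils and affect how thick they become, and decorin and biglycan also bind TGF-beta. The matricellular proteins SPARC, periostin and tenascin-C act on the contact between cells and matrix, while fibrillin forms the microfibrils of elastic tissue and lysyl oxidase cross-links collagen and elastin. In lymph node the stroma forms the conduits and capsule, and in spleen it forms the capsule, the trabeculae and the net of the red pulp.

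The animals lacked mouse apoE, the ligand by which remnant lipoproteins are cleared, and mouse apoA-I, around which high density lipoprotein is built. Mice with these deletions alone (DKO) were compared with DKO mice that in addition overexpressed human apoA-I (DKO/hA-I), so that the deletions were shared by all groups. The mice were 30 weeks old and ate a normal laboratory diet. Poly(A) RNA of spleen and of axillary lymph node was sequenced in 3 libraries per genotype and tissue, 12 in all, and the animal codes of the tissues differ. The sources used here do not give the promoter that drives the human transgene, and its transcript was not analysed here.

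Total counts were 5911835 to 11950825 in nodes and 8966001 to 11237680 in spleens. Markers fitted the tissue labels. Genes of high endothelial venules, the vessels by which lymphocytes enter a node, summed to 217.6 to 514.2 CPM (read counts per library size, with TMM scaling) in nodes and 96.7 to 183.9 CPM in spleens. Tlx1 and Nkx2-5, which are needed for spleen development, were at 0 counts in all nodes, and the summed level of 7 red pulp genes was 3231 to 3562 CPM in spleens against 403.7 to 1225 CPM in nodes. Apoa1 had 0 to 13 counts per library and Apoe 51 to 202, with group means of 8.47 to 14.6 CPM for Apoe. Since both genotypes lack it and Apoe, neither gene checks which genotype a library has. The pseudogene Rpl31-ps12 summed to 2094 counts in DKO nodes against 3 in DKO/hA-I nodes, and to 5 counts in spleens labelled DKO against 2162 in those labelled DKO/hA-I. Directions and differences given here are those of the labels, and an exchange of the genotype labels in 1 tissue would turn the genotype values of that tissue. In the animal codes of the nodes, the middle number was 75 for each DKO library and 76, 77 or 78 for the DKO/hA-I libraries, so that in node the genotype and whatever this number stands for cannot be told apart.

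Upstream sequence is shown for the 5 members with an entry in the promoter table of RefSeq (GRCm38.p6), each of which passed at least 1 edgeR test. Bgn was called between genotypes in node, Postn and Tnc between tissues in each genotype, Fbn1 between tissues in DKO and Sparc between tissues in DKO/hA-I. The 250 bases before the RefSeq start of each gene are given 5′ to 3′ on the strand of the gene, and capitals mark a match to a motif named below the sequences. Postn and Tnc have 2 entries each, of which the 1 nearest the gene start in GENCODE is shown. For Sparc and Fbn1 the RefSeq start, and so the window, lies inside the gene as annotated by GENCODE. The windows are chrX:73483351-73483600 on the plus strand for Bgn, chr11:55420081-55420330 on the minus strand for Sparc, chr3:54360857-54361106 on the plus strand for Postn, chr2:125506439-125506688 on the minus strand for Fbn1 and chr4:64047016-64047265 on the minus strand for Tnc.
Bgn: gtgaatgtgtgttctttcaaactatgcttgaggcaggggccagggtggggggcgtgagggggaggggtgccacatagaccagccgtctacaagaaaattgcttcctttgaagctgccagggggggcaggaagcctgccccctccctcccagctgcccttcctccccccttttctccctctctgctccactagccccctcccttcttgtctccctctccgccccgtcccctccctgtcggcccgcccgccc
Sparc: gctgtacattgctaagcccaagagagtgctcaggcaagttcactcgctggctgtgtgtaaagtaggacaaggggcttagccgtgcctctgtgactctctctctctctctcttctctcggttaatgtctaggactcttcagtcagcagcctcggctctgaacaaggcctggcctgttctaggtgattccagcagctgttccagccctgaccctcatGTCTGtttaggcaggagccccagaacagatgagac
Postn: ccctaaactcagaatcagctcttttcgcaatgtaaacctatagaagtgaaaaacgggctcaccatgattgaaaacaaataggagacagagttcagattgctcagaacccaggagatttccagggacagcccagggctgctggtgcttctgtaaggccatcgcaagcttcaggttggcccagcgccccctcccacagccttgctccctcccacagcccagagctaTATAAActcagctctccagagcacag
Fbn1: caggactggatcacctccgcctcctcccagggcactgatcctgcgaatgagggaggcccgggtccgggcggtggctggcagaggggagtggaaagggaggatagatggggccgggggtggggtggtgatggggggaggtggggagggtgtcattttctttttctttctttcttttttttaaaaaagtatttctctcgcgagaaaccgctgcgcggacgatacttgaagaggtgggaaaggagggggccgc
Tnc: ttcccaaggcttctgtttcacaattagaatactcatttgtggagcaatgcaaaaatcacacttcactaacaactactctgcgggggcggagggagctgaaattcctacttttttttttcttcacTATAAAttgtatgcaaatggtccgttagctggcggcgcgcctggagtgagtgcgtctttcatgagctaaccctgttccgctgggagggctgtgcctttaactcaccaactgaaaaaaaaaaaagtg
The search covered both strands for TATAAA (the TATA box), TGANTCA (AP-1) and CAGAC (the SMAD box), which 12.4%, 6.75% and 42.2% of 32851 mouse promoter windows of the same length hold. The Postn window has 1 TATAAA, whose first base lies at -26 from the start, and the Tnc window has 1 at -126. The Sparc window has 1 match to CAGAC or its complement, whose first base lies at -35. The windows of Bgn and Fbn1 hold none of the 3 motifs. The share of G and C was 64.4% for Bgn, 59.2% for Fbn1, 54.0% for Sparc, 52.0% for Postn and 44.8% for Tnc. A match is a run of letters and was not tested as a binding site.

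**Figure D1:**
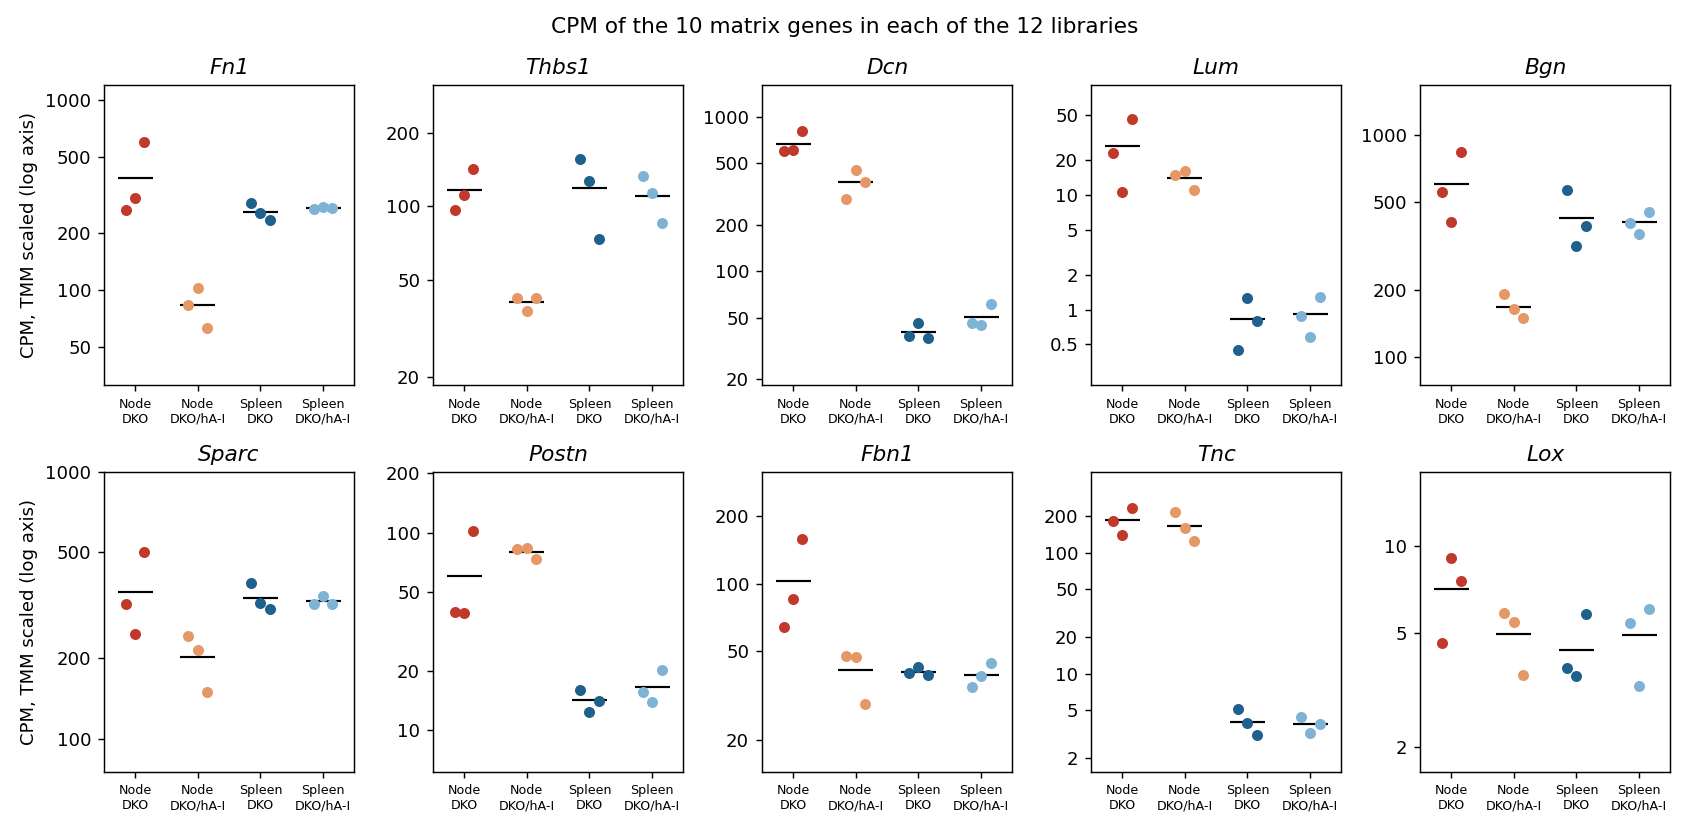
CPM (TMM scaled, log axis) of each of the 10 matrix genes in the 12 libraries, with a point for each library, ordered by replicate number within a group, and a bar at the mean of the 3. Fn1, Thbs1, Dcn, Bgn, Sparc and Fbn1 stood higher in every DKO node than in any DKO/hA-I node, as did 15.6% of the genes tested. Dcn, Lum, Postn and Tnc stood lower in every spleen than in any node, which was not counted over all genes.

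The first comparison asked which members differ in lymph node when human apoA-I is absent. Of the 10 members, 4 passed edgeR's quasi-likelihood test at an adjusted p under 0.05, all as higher in DKO, where 3.95% of the 14012 genes tested were called higher and 2.92% lower. The fitted difference was positive for 9 of 10 members, with a median of 0.89 on the log2 scale against 0.02 over all genes tested. For 6 members every DKO node stood above every DKO/hA-I node, which held for 15.6% of the genes tested. The count of members called was 1 without DKO/hA-I node 1 or 2, 2 without DKO/hA-I node 3 and 6 without DKO node 2. In whole tissue, more cells of a type and more RNA per cell cannot be told apart.

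Fn1 (ENSMUSG00000026193.15, chromosome 1, 71585520 to 71653200, GRCm38) encodes fibronectin. It stood at 261.5, 303 and 597 CPM in DKO nodes 1 to 3 and at 83.2, 102 and 63.1 CPM in DKO/hA-I nodes 1 to 3. DKO node 3 was far above the other DKO nodes, and the lowest DKO node was still well above the highest DKO/hA-I node. The log2 fold change was 2.24 ± 0.34 (SE), or 4.72-fold, with an edgeR adjusted p of 0.0162. It remained at 1.77 without DKO node 3 (adjusted p = 0.0308). The call was lost when any DKO/hA-I node was left out, with an adjusted p of 0.063 without node 1, 0.0578 without node 2 and 0.0546 without node 3, while the log2 fold change stayed between 2.06 and 2.42.

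Thbs1 (ENSMUSG00000040152.8, chromosome 2, 118111876 to 118127133) encodes thrombospondin-1, which is stored in platelets, made by macrophages and stromal cells, and able to activate latent TGF-beta. It stood at 96.8, 111 and 142 CPM in DKO nodes and at 42.3, 37.2 and 42.4 CPM in DKO/hA-I nodes. The DKO/hA-I nodes were close to each other, with an SD of 2.94 CPM around a mean of 40.6, and all DKO nodes were above them. The log2 fold change was 1.54 ± 0.17, or 2.90-fold, with an edgeR adjusted p of 0.00811. Thbs1 was the 1 member called in node under all 12 alternatives, with adjusted p between 3.25e-12 and 0.0387. Markers of megakaryocytes and platelets summed to 27.4 to 41.8 CPM in DKO nodes and 35.2 to 73.9 CPM in DKO/hA-I nodes, with Gp6 at 0 in all DKO nodes. Of these 11 markers 3 had enough counts for a test, with a median log2 fold change of -0.112. Only 1 of the 3, Pf4, had a positive value, and edgeR called it higher in DKO nodes. DESeq2 called 2 of the 3 and limma voom 0. Over all genes tested in node, edgeR called 3.95% higher in DKO, while DESeq2 called 14.0% and limma voom 4.99% in either direction.

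Of the small leucine-rich proteoglycans, Bgn (ENSMUSG00000031375.17, chromosome X, 73483602 to 73495933) and Dcn (ENSMUSG00000019929.16, chromosome 10, 97479609 to 97518143) passed. Bgn, which encodes biglycan, stood at 553, 406 and 843 CPM in DKO nodes and at 192, 164 and 149 CPM in DKO/hA-I nodes. The lowest DKO node was well above the highest DKO/hA-I node. The log2 fold change was 1.85 ± 0.27, or 3.60-fold (edgeR adjusted p = 0.0141), and it missed the threshold without DKO/hA-I node 1 (0.053) or node 2 (0.0684). Dcn, which encodes decorin, stood at 595, 607 and 800.0 CPM in DKO nodes and at 292, 452 and 379 CPM in DKO/hA-I nodes. Its groups did not overlap, but the fold was smaller, at 1.80 (log2 fold change 0.84 ± 0.20, edgeR adjusted p = 0.0492). The Dcn call held without DKO node 2 (0.0241) and was lost without any of the other 5 nodes: DKO node 1 (0.0743), DKO node 3 (0.16) and DKO/hA-I nodes 1 (0.138), 2 (0.0984) and 3 (0.143).

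Lum (ENSMUSG00000036446.5, chromosome 10, 97565128 to 97572703), which encodes lumican, lies 47.0 kb downstream of Dcn on the same strand. It stood at 23.3, 10.6 and 45.5 CPM in DKO nodes and at 14.9, 16.3 and 11.0 CPM in DKO/hA-I nodes. DKO node 2 was the lowest of the 6 nodes and DKO node 3 the highest, so the groups overlapped. The log2 fold change of 0.94 ± 0.46 did not pass (edgeR adjusted p = 0.251). It passed without DKO node 2 (1.30, adjusted p = 0.0304), and the value fell to 0.29 without DKO node 3 (0.706).

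Sparc, Tnc and Postn were not called in node by edgeR with all 6 nodes. Sparc (ENSMUSG00000018593.13, chromosome 11, 55394500 to 55423183), whose product binds collagen, stood at 319.8, 246 and 501 CPM in DKO nodes and at 243, 215 and 150.2 CPM in DKO/hA-I nodes. The groups did not overlap, but DKO node 2 and DKO/hA-I node 1 were almost level, and the log2 fold change was 0.82 ± 0.28 (edgeR adjusted p = 0.126). Sparc passed with DESeq2 (adjusted p = 0.0432), in the edgeR fit of all 12 libraries (0.0318) and without DKO node 2 (0.0368). Tnc (ENSMUSG00000028364.15, chromosome 4, 63959785 to 64047015), which encodes tenascin-C, stood at 183, 139 and 233 CPM in DKO nodes and at 218, 159.7 and 125 CPM in DKO/hA-I nodes. The ranges nearly coincided, and the log2 fold change was 0.16 ± 0.25 (adjusted p = 0.74). Postn (ENSMUSG00000027750.16, chromosome 3, 54361109 to 54391037), which encodes periostin, was the member with a negative value. It stood at 39.7, 39.3 and 102 CPM in DKO nodes and at 82.5, 83.3 and 73.2 CPM in DKO/hA-I nodes. DKO nodes 1 and 2 were below all DKO/hA-I nodes and DKO node 3 was above them (log2 fold change -0.38 ± 0.36, adjusted p = 0.554). Without DKO node 3 the value was -1.01 and passed as lower in DKO (adjusted p = 0.0358).

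Fbn1 (ENSMUSG00000027204.13, chromosome 2, 125300594 to 125507993) encodes fibrillin-1, the main component of microfibrils. It stood at 64.2, 85.5 and 158 CPM in DKO nodes and at 47.7, 46.9 and 28.9 CPM in DKO/hA-I nodes. The groups did not overlap, and the log2 fold change of 1.33 ± 0.35 missed the threshold of the edgeR test (adjusted p = 0.0643) and passed with DESeq2 (0.00281). Lox (ENSMUSG00000024529.14), which encodes lysyl oxidase, was the least abundant member, at 4.59, 9.11 and 7.59 CPM in DKO nodes and 5.85, 5.42 and 3.55 CPM in DKO/hA-I nodes. Its groups overlapped (log2 fold change 0.51 ± 0.32, adjusted p = 0.367).

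DKO node 3 was the highest of the 3 DKO nodes for 9 of the 10 members, all but Lox, and DKO/hA-I node 3 the lowest of its group for 8. The summed CPM of the 10 members was 2142, 1956 and 3429 in DKO nodes 1 to 3 and 1221, 1282 and 1026 in DKO/hA-I nodes 1 to 3. In the authors' deposited table of their own node comparison, Fn1 (q = 2.52e-08), Thbs1 (q = 6.42e-05), Bgn (q = 2.35e-05) and Fbn1 (q = 0.00183) were called and Dcn was not (q = 0.294), among 784 genes called of 23284.

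**Figure D2:**
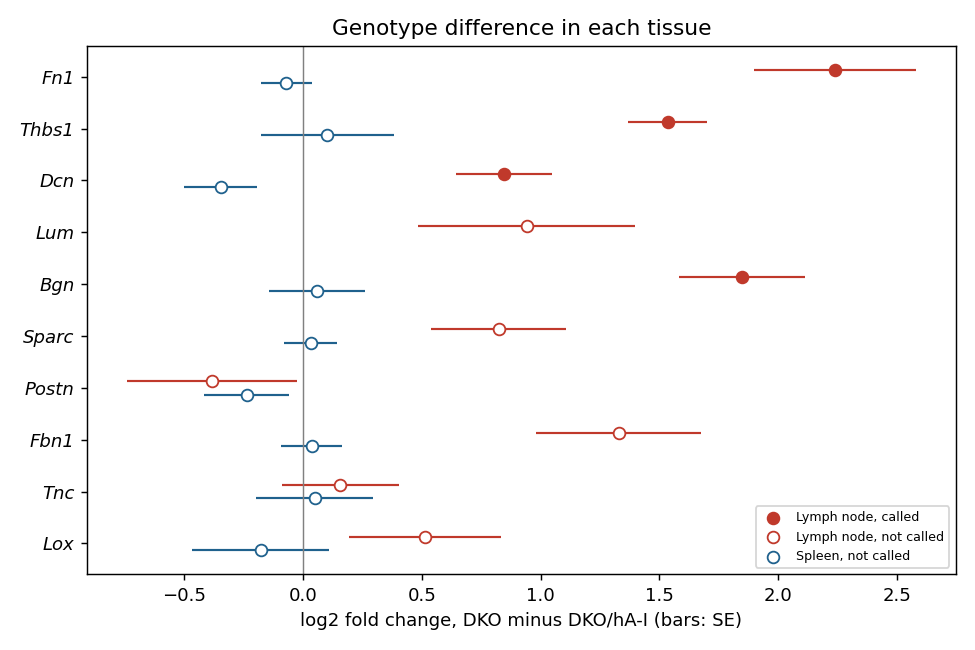
The log2 fold change between genotypes (DKO minus DKO/hA-I) of each member in lymph node (red) and spleen (blue), with bars for the standard error and filled points for an edgeR adjusted p under 0.05. The filled points are Fn1, Thbs1, Dcn and Bgn in node, at 0.84 to 2.24, while the spleen points lie between -0.35 and 0.10, and Lum has no spleen point because it had too few counts there.

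In spleen the same comparison called 0 of 9 members with edgeR, where 0.00714% of 14009 genes were called in either direction. DESeq2, limma voom and a fit with the middle number of the animal code as a block also called 0 members. That number was 56, 57 and 55 in DKO spleens 1 to 3 and 55, 57 and 57 in DKO/hA-I spleens 1 to 3. DKO spleen 1, alone at 56, therefore added nothing to the genotype difference in the block fit. Over all genes, the block fit called 515 of 14009. The genotype ranges overlapped for every member. At an unadjusted p under 0.05, where 4.4% of all genes tested lay, there was 1 member, Dcn, at 38.1, 45.9 and 36.7 CPM in spleens labelled DKO and 46.1, 45.1 and 61.4 CPM in those labelled DKO/hA-I. Its log2 fold change was -0.35 ± 0.15 (unadjusted p = 0.0489, adjusted p = 0.929), and its sign turns if the genotype labels of the spleens are exchanged.

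Fn1 was even across the spleens, at 286.5, 254 and 232 CPM in DKO and 267.5, 271 and 269 CPM in DKO/hA-I, with a log2 fold change of -0.07 ± 0.11. Bgn stood at 565, 315 and 389 CPM in DKO spleens and 403, 359 and 450.3 CPM in DKO/hA-I spleens (0.06 ± 0.20). Thbs1 varied most within a genotype among these 3 genes relative to its mean, at 157, 127 and 73.7 CPM in DKO spleens and 133, 113 and 85.7 CPM in DKO/hA-I spleens (0.10 ± 0.28). In each genotype spleen 1 was the highest and spleen 3 the lowest for Thbs1, and replicate numbers were not found to pair the libraries. Markers of megakaryocytes and platelets summed to 265.7 to 506.9 CPM in DKO spleens and 338.2 to 475.2 CPM in DKO/hA-I spleens, with the lowest sum in spleen 3 and the highest in spleen 2 of each genotype. The part of these cells in the level of Thbs1 was not tested.

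The other members showed as little separation in spleen. Sparc stood at 382, 323 and 306 CPM in DKO and 321, 343 and 320.1 CPM in DKO/hA-I spleens (log2 fold change 0.03 ± 0.11), and Fbn1 at 39.9, 42.2 and 39.0 CPM against 34.5, 38.8 and 44.1 CPM (0.04 ± 0.13). Postn stood at 16.0, 12.3 and 14.1 CPM in DKO and 15.5, 13.8 and 20.25 CPM in DKO/hA-I spleens (-0.24 ± 0.18). Tnc, at 5.08, 3.91 and 3.10 CPM against 4.41, 3.27 and 3.88 CPM (0.05 ± 0.25), and Lox, at 3.75, 3.52 and 5.80 CPM against 5.38, 3.27 and 6.03 CPM (-0.18 ± 0.29), were near the low end of what was tested. Lum did not enter the test, with 25 counts in the 3 DKO spleens and 31 in the 3 DKO/hA-I spleens, or 0.44 to 1.29 CPM, and a difference in it was not detectable at this depth.

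The genotype difference was then compared between the tissues in 1 fit of all 12 libraries. The node difference exceeded the spleen difference for 4 members, where 3.33% of 14608 genes were called in either direction and 2.04% in this direction. The difference of differences was 2.29 ± 0.37 on the log2 scale for Fn1 (edgeR adjusted p = 0.0071), 1.77 ± 0.36 for Bgn (0.0205), 1.41 ± 0.34 for Thbs1 (0.0438) and 1.17 ± 0.26 for Dcn (0.0314). Fbn1 (1.27 ± 0.39, adjusted p = 0.104), Sparc (0.77 ± 0.32, 0.237), Lum (1.05 ± 0.81, 0.568), Lox (0.67 ± 0.46, 0.513), Tnc (0.09 ± 0.37, 0.946) and Postn (-0.17 ± 0.44, 0.905) did not pass. With DESeq2 Fbn1 passed (0.0333), and by edgeR it passed without DKO node 1 (0.0341) and Sparc without DKO node 2 (0.0439). With the genotype labels of the spleens exchanged, an alternative chosen after seeing the data, the values were 2.16 for Fn1 (adjusted p = 0.00813), 1.90 for Bgn (0.0134) and 1.63 for Thbs1 (0.0207), while Dcn was at 0.50 and not called (0.278). Under the labels as deposited, only Fn1 was called whichever of the 12 libraries was left out, with adjusted p up to 0.0332. With 1 library left out, Bgn was called in 7 of 12 fits and Thbs1 and Dcn in 3 each, with log2 values of 1.46 to 2.01, 1.17 to 1.65 and 1.00 to 1.33. Bgn missed the threshold without DKO/hA-I node 2 (0.0619), without DKO spleens 2 (0.056) or 3 (0.0635) and without DKO/hA-I spleens 1 (0.05) or 3 (0.0578). Thbs1 was called without DKO node 1 (0.0382), DKO node 2 (0.0396) or DKO spleen 1 (0.0267) and had an adjusted p of 0.0516 to 0.112 without any of the other 9 libraries. Dcn was called without DKO node 1 (0.0316), DKO node 2 (0.0126) or DKO/hA-I node 2 (0.0328) and had 0.0527 to 0.096 without any of the other 9.

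The tissues were compared within each genotype. They came from animals with other codes, so that tissue and animal cannot be told apart. The contrasts share the spread estimated over all 12 libraries, and each uses the libraries of 1 genotype. In DKO mice 5 members were lower in spleen and none higher, where 11.3% of 14608 genes were higher in node and 11.5% higher in spleen. In DKO/hA-I mice 4 members were lower in spleen and 4 higher, where 11.8% were higher in node and 14.0% higher in spleen. The cell make-up of the tissues also differed. Of 12 adipocyte markers tested, 5 were higher in node in DKO mice and 11 in DKO/hA-I mice, and 0 were higher in spleen. The part of cell types in the tissue differences of the members was not tested.

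Tnc had the largest tissue difference of the 10. It stood at 139 to 233 CPM in DKO nodes against 3.10 to 5.08 CPM in DKO spleens (log2 fold change -5.53 ± 0.28, 46.0-fold lower in spleen, edgeR adjusted p = 9.05e-08) and at 125 to 218 CPM in DKO/hA-I nodes against 3.27 to 4.41 CPM in spleens (-5.44 ± 0.28, 8.4e-08). Dcn was 16.6-fold lower in DKO spleens (-4.05 ± 0.21, 9.05e-08) and 7.36-fold lower in DKO/hA-I spleens (-2.88 ± 0.20, 5.14e-07). Lum, at 10.6 to 45.5 CPM in all nodes and 0.44 to 1.29 CPM in all spleens, was lower by -4.96 ± 0.54 (2.45e-05) and -3.91 ± 0.52 (0.000129) on the log2 scale. Postn was 4.28-fold lower in DKO spleens (-2.10 ± 0.32, 0.000382) and 4.81-fold lower in DKO/hA-I spleens (-2.27 ± 0.32, 0.000186). For these 4 genes every spleen was below every node of either genotype, a separation that was not counted over all genes. Their calls held in every alternative tried.

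Fbn1 was lower in spleen in DKO mice (-1.35 ± 0.28, edgeR adjusted p = 0.00356) and had a value of -0.07 ± 0.28 in DKO/hA-I mice (0.886). Its 6 spleens lay between 34.5 and 44.1 CPM, beside DKO/hA-I nodes at 28.9 to 47.7 CPM and DKO nodes at 64.2 to 158 CPM. Fn1, Thbs1 and Bgn had another pattern. In DKO mice their tissue differences missed the threshold, at -0.59 ± 0.26 (adjusted p = 0.125), 0.03 ± 0.24 (0.946) and -0.51 ± 0.25 (0.173). Their DKO/hA-I spleens were above DKO/hA-I nodes, by 1.70 ± 0.27 (0.000422), 1.44 ± 0.25 (0.000852) and 1.26 ± 0.26 (0.00256) on the log2 scale. These 2 sets of values come from different libraries of each tissue, and the tests of the difference of differences given above are those between them. The Fn1 value in DKO mice depended on 2 nodes. It was -0.82 (adjusted p = 0.0353) without DKO node 1 and -0.14 (0.652) without DKO node 3, and for Bgn it was -0.73 (0.0295) without DKO node 2 and -0.19 (0.639) without DKO node 3. Sparc was higher in DKO/hA-I spleens (0.69 ± 0.23, adjusted p = 0.0417) and at -0.08 ± 0.23 in DKO mice (0.843). The Sparc call held without DKO/hA-I node 1 (0.0302) and was lost without DKO/hA-I node 2 (0.0781) or 3 (0.159), without DKO/hA-I spleen 1 (0.0852), 2 (0.107) or 3 (0.0874), and with a replicate block (0.0653). Lox passed in neither genotype (-0.68 ± 0.33, 0.159, and -0.01 ± 0.32, 0.982).

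**Figure D3:**
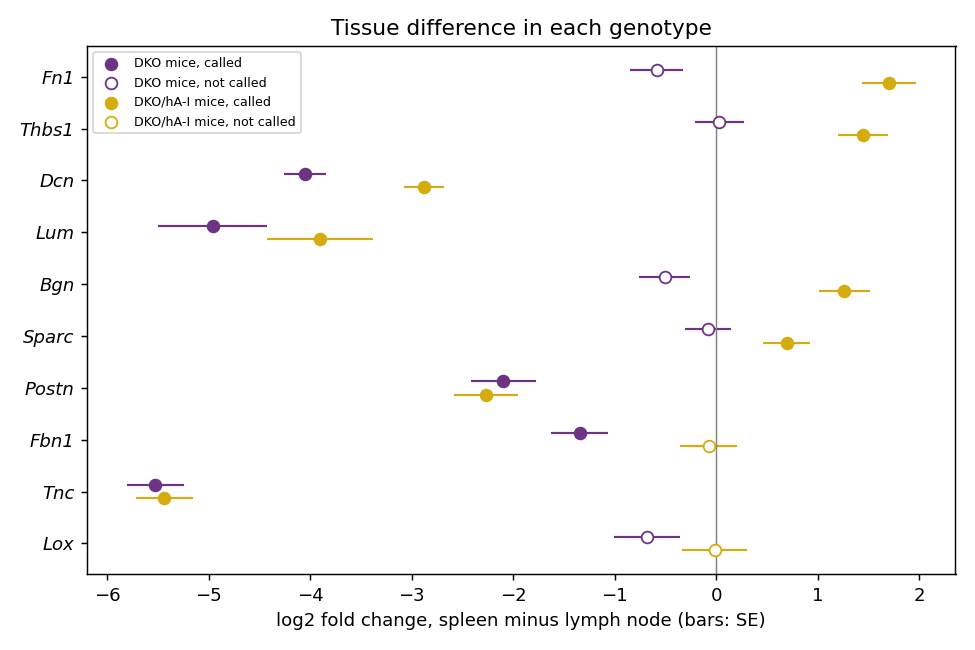
The log2 fold change between tissues (spleen minus lymph node) of each member in DKO mice (purple) and DKO/hA-I mice (yellow), with bars for the standard error and filled points for an edgeR adjusted p under 0.05. Tnc, Lum, Dcn and Postn lie at -2.10 or below in each genotype, while Fn1, Thbs1, Bgn and Sparc are at 0.69 to 1.70 in DKO/hA-I mice and between -0.59 and 0.03 in DKO mice.

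Levels of different genes were compared per kilobase of exon. In DKO nodes the order of the means was led by Dcn (114 ± 19.7 CPM per kb, SD, n = 3), Bgn (98.5 ± 36.5) and Sparc (93.9 ± 34.7), which did not differ beyond their SDs. Fn1 (33.1 ± 15.7), Tnc (23.8 ± 6.09) and Thbs1 (19.2 ± 3.80) came next and overlapped each other, followed by Lum (10.8 ± 7.20), Fbn1 (8.45 ± 4.04) and Postn (6.92 ± 4.13), which also overlapped, and by Lox (1.49 ± 0.48). In DKO/hA-I nodes Dcn (64.2 ± 13.7) and Sparc (53.6 ± 12.6) stood above Bgn (27.6 ± 3.54) and Tnc (21.6 ± 6.02). Postn (9.16 ± 0.64), Fn1 (7.08 ± 1.66), Thbs1 (6.69 ± 0.48) and Lum (5.73 ± 1.12) followed, then Fbn1 (3.40 ± 0.87) and Lox (1.03 ± 0.26).

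In spleen the order differed. Sparc (89.0 ± 10.5 CPM per kb in DKO and 86.6 ± 3.44 in DKO/hA-I) and Bgn (69.3 ± 21.04 and 66.2 ± 7.49) led, with Fn1 (22.1 ± 2.33 and 23.0 ± 0.16) and Thbs1 (19.6 ± 6.93 and 18.2 ± 3.89) next, and Dcn, the first in node, stood at 6.89 ± 0.85 and 8.71 ± 1.56. Fbn1 (3.33 ± 0.14 and 3.23 ± 0.40), Postn (1.62 ± 0.21 and 1.90 ± 0.38) and Lox (0.91 ± 0.26 and 1.02 ± 0.30) were lower, and Tnc (0.52 ± 0.13 and 0.50 ± 0.07) and Lum (0.34 ± 0.17 and 0.37 ± 0.15) were the lowest.

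**Figure D4:**
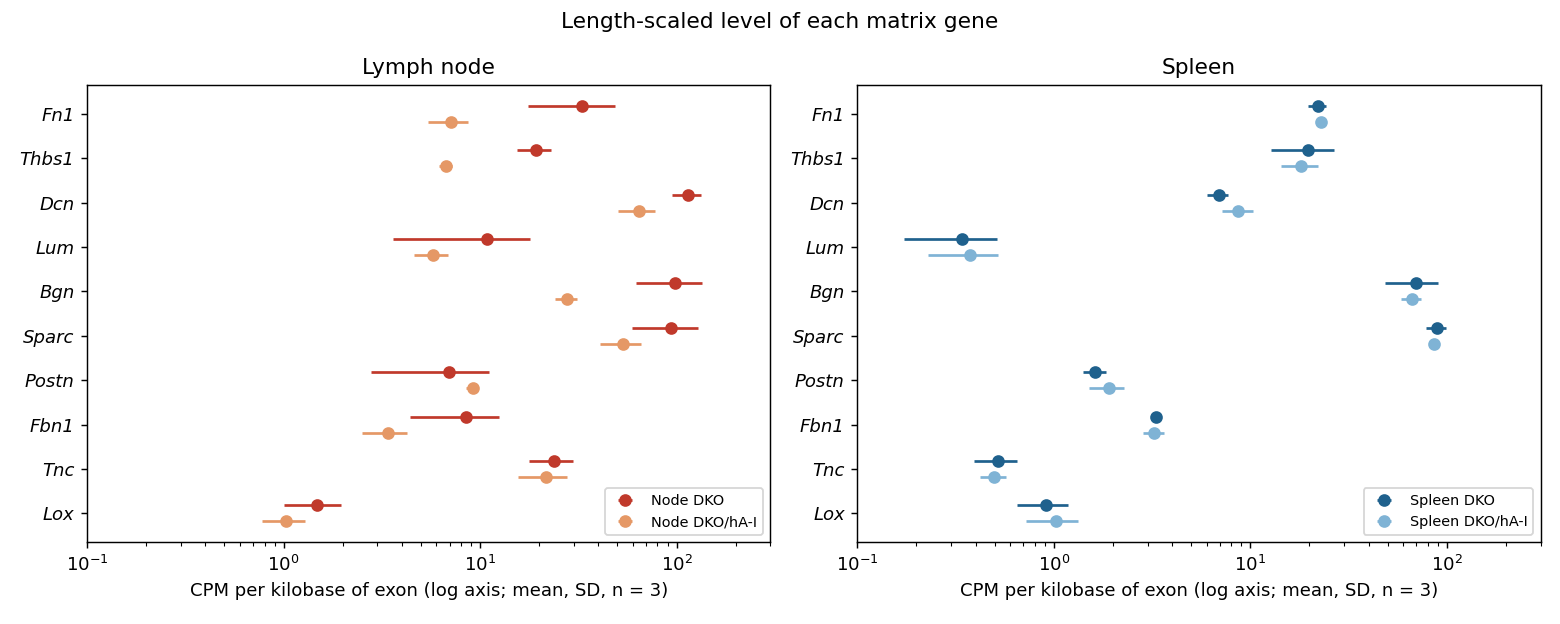
Mean level of each member in CPM per kilobase of exon (log axis, bars for the SD over 3 libraries) in lymph node (left) and spleen (right). Dcn, Bgn and Sparc lead in DKO nodes at 93.9 to 114, Dcn is below 10 in spleen, and Tnc and Lum are below 1 there.

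Other genes of the matrix were counted by lists. Over all genes tested in node, edgeR called 3.95% higher in DKO and 2.92% lower. In node edgeR called 9 of 17 tested cross-linking and processing enzymes, all higher in DKO, and DESeq2 also called 9. The calls include Adamts2, a procollagen peptidase (18.02 ± 7.38 against 3.72 ± 1.22 CPM, log2 fold change 2.29 ± 0.36, edgeR adjusted p = 0.0177), Loxl2, a relative of lysyl oxidase (1.42 ± 0.25, 0.0215), and Plod3, which hydroxylates lysines of collagen (0.84 ± 0.15, 0.0241). Lox itself was not among the calls. Of other matricellular glycoproteins, edgeR called 9 of 20 tested genes and DESeq2 14. In the edgeR test 8 were higher and Smoc1 was lower (2.83 ± 0.34 against 16.1 ± 5.64 CPM, -2.49 ± 0.31, 0.0113). Thbs3, a thrombospondin like Thbs1, was among the higher ones (1.28 ± 0.20, 0.0177), as were Spon1 (1.62 ± 0.29, 0.0225) and Spp1, which encodes osteopontin (4.94 ± 0.50, 0.00756).

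Elastic fibre and microfibril genes gave 5 calls of 15 tested, all higher in DKO, with Fbln2, which encodes fibulin-2 and binds fibronectin and fibrillin (38.0 ± 13.4 against 9.83 ± 2.19 CPM, log2 fold change 1.96 ± 0.29, edgeR adjusted p = 0.0147), Emilin2 (1.97 ± 0.31, 0.0177) and Emilin1 (1.29 ± 0.24, 0.0256). Among receptors of matrix glycoproteins, 7 of 23 tested genes were higher. These included the integrin subunit Itgb5 (119 ± 58.0 against 24.9 ± 5.44 CPM, 2.27 ± 0.37, 0.0185), the syndecan Sdc1 (2.10 ± 0.33, 0.0177) and the hyaluronan receptor Cd44 (319 ± 39.4 against 169 ± 20.9 CPM, 0.93 ± 0.15, 0.0177). Large proteoglycans and basement membrane genes gave 2 of 12, Nid2 (1.60 ± 0.31, 0.0301) and Lamc1 (0.57 ± 0.13, 0.0466). In the TGF-beta pathway 2 of 14 were higher, among them the receptor gene Tgfbr1 (1.21 ± 0.22, 0.0229), and Tgfbr3 was lower (-0.90 ± 0.18, 0.0331). Of the other small leucine-rich proteoglycans, edgeR called 0 of 7 tested, DESeq2 3 and limma voom 0, with a median log2 fold change of 0.66. There were 6 of the 7 at an unadjusted p under 0.05. Over all genes tested in node, 25.1% were at an unadjusted p under 0.05, DESeq2 called 14.0% and limma voom 4.99%. Medians of the other lists were 1.16 for matricellular genes, 0.79 for enzymes, 0.60 for receptors, 0.59 for elastic fibre genes, 0.47 for large proteoglycans and basement membrane and 0.23 for the TGF-beta pathway. In spleen edgeR called 0 of the 105 genes tested from these 7 lists between genotypes, with 4 at an unadjusted p under 0.05 (4.4% of all genes tested), and DESeq2 and limma voom also called 0.

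**Figure D5:**
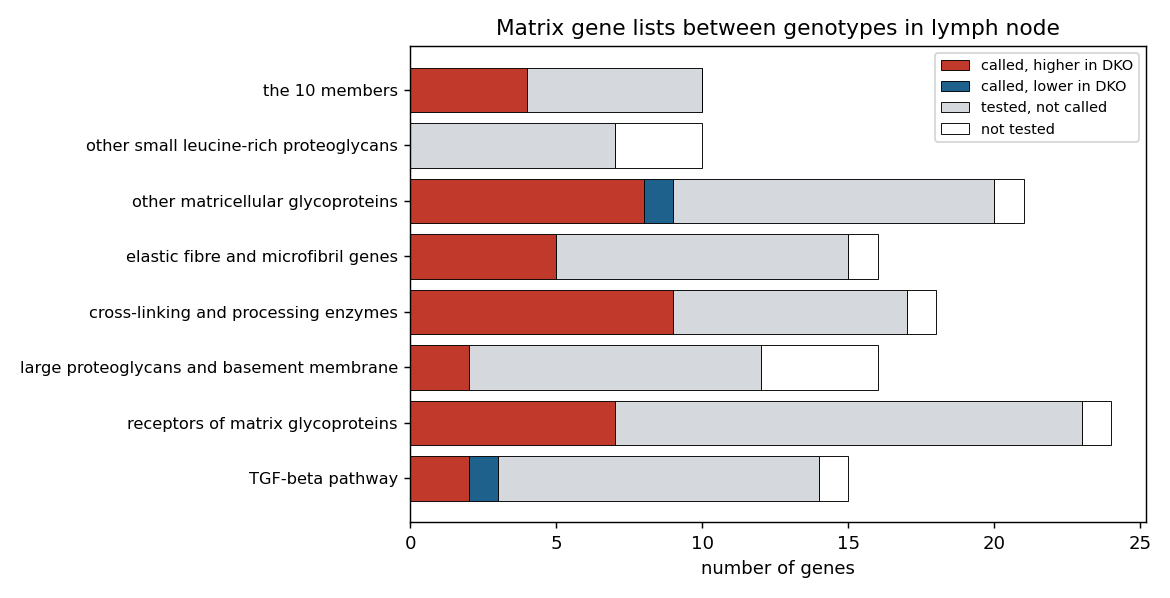
Number of genes of each list (bars from 0) that were called higher in DKO nodes (red), called lower (blue), tested and not called (grey) or not tested (white), at an edgeR adjusted p under 0.05. The members gave 4 calls of 10, the enzymes 9 of 17 tested and the matricellular genes 9 of 20 tested with 1 of them lower. Over all genes tested, 3.95% were called higher and 2.92% lower.

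Between tissues, genes of these lists differed in each direction, as the members did. Smoc2, of the same family as Sparc, was at 2.25 and 4.79 CPM in DKO and DKO/hA-I nodes and at 238 and 256 CPM in spleens (log2 fold change 6.81 ± 0.37 and 5.72 ± 0.33, edgeR adjusted p = 1.28e-07 and 1.7e-07). Tnxb, of the tenascin family, was higher in spleen (2.28 ± 0.27 and 3.35 ± 0.28, 4.45e-05 and 2.51e-06), in contrast to Tnc. Vtn, which encodes vitronectin, was lower in spleen, at 17.3 and 26.4 CPM in nodes and 0.11 and 0.13 CPM in spleens. Mfap4, a microfibril-associated gene, was higher in spleen, at 13.6 and 11.9 CPM against 0.41 and 0.09 CPM in nodes. The laminin gene Lamb1 was lower in spleen by -2.998 ± 0.24 and -2.58 ± 0.23 on the log2 scale (1.87e-06 and 5.45e-06).

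Markers of several cell types differed between node genotypes together with the members. Their edgeR calls stand beside 3.95% of all genes called higher in DKO nodes and 2.92% lower. Fibroblast and reticular stroma markers (15 genes) summed to 1867, 1903 and 3504 CPM in DKO nodes and 1056 to 1208 CPM in DKO/hA-I nodes, with 8 of 14 tested genes higher, among them Pdgfra and Pdgfrb. DKO node 3 was the highest in this sum as it was for 9 members. It was also the highest DKO node in the sums of macrophage, lipid-laden macrophage, adipocyte, and smooth muscle and pericyte markers. In the sums of blood endothelium, B cell and T cell markers it was not the highest. Macrophage markers summed to 6244 to 10280 CPM in DKO against 3768 to 4890 CPM in DKO/hA-I nodes (6 of 12 higher and Marco lower). Markers of lipid-laden macrophages, which include Spp1, summed to 6784, 1897 and 9422 CPM in DKO nodes 1 to 3 against 866.8 to 1092 CPM in DKO/hA-I nodes (9 of 11 higher). Adipocyte markers summed to 628.8 to 2541 CPM against 1019 to 2977 CPM, with 10 of 12 lower and a median log2 fold change of -4.96 over the 12. The 1 adipocyte marker with a positive value was Lpl, which is also in the list of lipid-laden macrophages and was not called by edgeR. Blood endothelium markers were at 733 to 889 CPM against 1001 to 1060 CPM (2 of 10 lower). The counts at an unadjusted p that follow stand beside 25.1% of all genes tested in node. B cell markers were at 2031 to 3158 CPM against 3289 to 3570 CPM, with 0 of 7 called by edgeR, 3 at an unadjusted p under 0.05, 1 called by DESeq2 and 0 by limma voom. T cell markers were at 602.3 to 972.9 CPM against 1130 to 1282 CPM, with 0 of 8 called by edgeR, 6 at an unadjusted p under 0.05, 4 called by DESeq2 and 0 by limma voom. Smooth muscle and pericyte markers were at 374 to 501.8 CPM against 360.7 to 381.5 CPM, with 0 of 8 called by edgeR, 2 at an unadjusted p under 0.05, 2 called by DESeq2 and 0 by limma voom. The part of these cell types in the differences of the members was not tested. In spleen edgeR, DESeq2 and limma voom called 0 of 123 tested genes of the marker lists between genotypes (6 at an unadjusted edgeR p under 0.05, against 4.4% of all genes tested), and stroma markers summed to 928.9 to 1136 CPM in DKO and 928 to 1112 CPM in DKO/hA-I.

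The genes whose pattern over the 12 libraries was nearest to each member were found by the root mean square difference of centred log2(CPM + 1) values among 14608 genes. Patterns over these libraries share the tissue and genotype differences and the library depths, so the values are a description. Among the members, Fn1 and Bgn were the nearest pair (0.30), followed by Thbs1 and Bgn (0.38), while Dcn and Lum, neighbours on chromosome 10, were at 0.40. The nearest genes to Fn1 were C1qtnf5 (0.25), Cd14 (0.26) and Clec4a2 (0.28), and those to Bgn included Lilra5 (0.20) and Clec4a2 (0.23). Thbs1 was nearest to Gdpd1 (0.27), Dcn to Steap4 (0.30), Lum to Ccl11 (0.37) and Sparc to 9830001H06Rik (0.08). Fbn1 was nearest to Col5a2 (0.16), which encodes a fibrillar collagen chain, then Serping1 (0.21) and Ptgfrn (0.23). Postn was nearest to Foxp2 (0.27), Lox to Pter (0.17) and Tnc to Meox2 (0.27), with Vtn second at 0.53.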

How the data were processed

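Poly(A) RNA of spleen and axillary lymph node was sequenced in 12 libraries, 3 per genotype and tissue. The raw counts per gene symbol were used as deposited, per the file headers, and each column was matched to its library by animal code. The q-values are those of the authors' deposited comparison. The submitters' processing notes name Trimmomatic, Bowtie, TopHat, Cuffdiff and GRCm38 (mm10), while versions, annotation, counting program and strand setting are not stated. Reads of overlapping genes may therefore have been divided in ways that cannot be checked.

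Genes passing filterByExpr (minimum count 10, minimum total 15) were tested with edgeR 4.0.16 (TMM, robust glmQLFit, glmQLFTest) and Benjamini-Hochberg adjustment over all genes tested, with calls at an adjusted p under 0.05. Genotypes were compared within the 6 libraries of a tissue. Tissues, and the difference of genotype differences, came from 1 fit of all 12. Alternatives used DESeq2 1.42.0, limma 3.58.1 voom, other size factors, no filter, blocks, each library left out and, added after seeing the data, exchanged spleen genotype labels. CPM values are on 1 TMM scale for all 12 libraries, errors are SDs over 3 libraries, and those of log2 fold changes are standard errors. For edgeR the standard error was derived as the absolute log2 fold change over the square root of the F statistic. Coordinates and exon lengths are from GENCODE vM21 (GRCm38). The edgeR comparisons of genotypes were tried on simulated counts with the same dispersion for every gene. That trial does not measure how the test performs at the spread of these libraries.

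Members and lists were chosen with earlier results of these data known. The text names all members, up to 3 called genes per list and direction by adjusted p, and the 3 genes nearest each member, not all of which are shown; some genes that this rule names are not reported here. Each library has its own animal code, pairs within a group differed by 9.52 to 56.5 times the Poisson expectation, and p-values measure the spread between libraries. A floor of 3 counts is 0.251 to 0.507 CPM, for counting error only.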

Additional observations from a re-analysis of the deposited data

Results flagged for a closer look

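For 4 members the genotype difference itself (DKO minus DKO/hA-I) differed between lymph node and spleen in the fit of all 12 libraries. The difference of differences was 2.29 on the log2 scale for Fn1 (edgeR adjusted p = 0.0071), 1.77 for Bgn (0.0205), 1.41 for Thbs1 (0.0438) and 1.17 for Dcn (0.0314). Over all 14608 genes tested, 3.33% were called in either direction and 2.04% in this direction. In each case all 3 DKO nodes were above all 3 DKO/hA-I nodes, as for 15.6% of the genes tested in node, while the spleens of the genotypes overlapped. These ranges come from the same libraries as the calls. The tissues came from different animals, and Rpl31-ps12 differed between the genotype labels in opposite directions in the tissues, so that directions and differences rest on the labels. With the genotype labels of the spleens exchanged, Fn1 (2.16), Bgn (1.90) and Thbs1 (1.63) were called and Dcn (0.50, adjusted p = 0.278) was not.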

How the results depend on the processing

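Of 657 recomputed log2 fold changes of single members, 567 kept their direction and their side of the threshold, 44 lost a call, 12 gained one and 34 changed sign. The cause was not tested. The count of members called ranged from 1 to 6 in node (4 in the main test, 6 with DESeq2 or all 12 libraries in the fit, 3 with limma voom) and from 1 to 5 for the difference of genotype differences with 1 library left out. It was 5 or 6 between tissues in DKO, 7 or 8 in DKO/hA-I and 0 in spleen throughout. With DESeq2, Fbn1 (adjusted p = 0.00281) and Sparc (0.0432) passed in node, as they did with all 12 libraries (0.00748 and 0.0318). Dcn missed with limma voom (0.052), as did Thbs1 for the difference of differences (0.0647).

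Replicate numbers did not pair the libraries, with correlations of -0.141 to 0.108. With the replicate block, Dcn in node (0.0727), Sparc between tissues in DKO/hA-I (0.0653) and Thbs1 for the difference of differences (0.0679) were not called, and 438 genes were called in node against 962. The node count over all genes was 1967 with DESeq2, 2253 with 12 libraries and 115 to 2245 with 1 library left out. For the difference of differences it was 487, 973 with DESeq2, 253 with limma voom, 753 with the spleen genotype labels exchanged, 299 with the replicate block and 179 to 1160 with 1 library left out. In spleen it was 1, 5 with DESeq2, 515 with the middle number of the animal code as a block and 167 without DKO spleen 1.

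Signs changed for uncalled values only. Thbs1 between tissues in DKO was -0.022 with limma voom and -0.018 with the replicate block, and -0.079 with the spleen genotype labels exchanged, which was chosen after seeing the data, called 3 members for the difference of differences and left the members called between tissues at 5 in DKO and 8 in DKO/hA-I. With the middle number of the animal code as a block in spleen, Thbs1 was -0.152, Bgn -0.239, Sparc -0.063 and Tnc -0.156. With 1 library left out, the spleen genotype differences ranged from -0.159 to 0.356 (Thbs1), -0.216 to 0.245 (Bgn), -0.079 to 0.098 (Sparc), -0.039 to 0.127 (Fbn1) and -0.157 to 0.209 (Tnc). Tnc in node ranged from -0.059 to 0.381. Tissue differences ranged from -0.194 to 0.269 (Thbs1, DKO), -0.29 to 0.241 (Sparc, DKO), -0.278 to 0.052 (Fbn1, DKO/hA-I) and -0.205 to 0.194 (Lox, DKO/hA-I), and differences of differences from -0.771 to 0.075 (Postn) and -0.1 to 0.3 (Tnc).

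With 3 libraries per group, DKO node 2 at 5911835 counts and Lum at 25 to 31 counts per spleen group, small differences of the members were not detectable. Unknown strand and counting settings limit what can be said of overlapping genes.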
